A study of Mus musculus with 6 samples.

Results

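The data described here were transcript levels in mouse natural killer (NK) cells that had been expanded on feeder cells, with and without a final exposure to an antibody against TIM-3. Of the 6 libraries of the series, 4 entered the comparison, taken by the expansion method and treatment in their labels: 2 labelled with anti-TIM-3 antibody and 2 labelled with the same expansion and no treatment. All 498 endogenous probes of the deposited value table were considered, and 410 of them, with 20 housekeeping probes, had enough counts to be tested. A count table that could not be tied to samples listed 784 probes, so the panel may hold more than these. The NK cells of all groups came from female C57BL/6 mice and were grown for 12 days with 10 ng/mL of a conjugate of IL-15 and its receptor alpha chain. In the 2 feeder groups the cells were also stimulated with AgN2a-4P, a mouse neuroblastoma line engineered to carry costimulatory ligands and irradiated here at 100 Gy. The antibody step lasted 4 h, after which NK cells were purified magnetically before RNA extraction. The other 2 libraries, expanded with the IL-15 conjugate alone, served only as further libraries without the antibody and to estimate the spread. Replicate numbers are those in the sample titles: anti-TIM-3 had replicates 1 and 2, untreated feeder replicates 2 and 3, and IL-15 replicates 1 and 3. In the sentences below, paired values follow that order.

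Some points of the labels limit the comparison. The control libraries were labelled untreated while the design text named an IgG2a isotype control, so any effect of the incubation and that of the antibody cannot be told apart if the controls had none. The protocols described quantitative PCR, whereas the values were those of NanoString nCounter probes, which are counted without amplification. The labels do not state that libraries of a group came from separate animals or cultures, and p-values therefore measure the spread between these libraries, which may be technical.

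TIM-3, encoded by Havcr2, is a surface receptor of NK cells, T cells and myeloid cells that is studied as an immune checkpoint, and blocking antibodies against it are used to release that brake. NK cells kill through perforin and granzymes stored in granules and through death ligands of the tumour necrosis factor (TNF) family, and they signal to other cells with chemokines and cytokines. Many of those genes are targets of NF-kB, a family of transcription factors held inactive by inhibitors such as IkB-alpha, whose own gene is induced by NF-kB and so closes a feedback loop.

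Levels are given as normalised counts, the deposited log2 values taken out of the log, on a scale that sets the housekeeping mean equal in every library. Differences are in log2, anti-TIM-3 minus untreated feeder, ± the standard error of the limma fit with n = 2 libraries per group, and the call threshold was a Benjamini-Hochberg adjusted p of 0.05. A bulk level cannot tell fewer cells of a type apart from less RNA per cell. The 4 compared libraries held between 299485 and 409626 recovered counts, and the 8 negative control probes averaged 4.25 to 5.63 counts in them. All 12 NK cell markers in the deposited value table were over the background floor, the negative control mean plus 2 SD, in all 4 libraries. Of them, Ncr1, Klrb1c, Klrd1, Itga2 and Tbx21 rose and Eomes and Prf1 fell. Only 2 of 11 T cell markers were in the deposited value table. Their summed level was 86.7 and 78.1 normalised counts after anti-TIM-3 against 207 and 210.1 in the untreated feeder libraries. In the IL-15 libraries, which had no antibody either, it was lower, at 44.2 and 71.7. Of the 2 markers, Cd3d fell, at -1.83, and the other, at 0.45, did not pass. Monocyte, macrophage and dendritic cell markers summed higher after anti-TIM-3, to 1314 and 1512 against 533 and 551. The Mpo probe, the neutrophil marker in the deposited value table, and Ms4a1, a B cell marker, had at most 14 counts in any of the 4 libraries.

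The antibody libraries stood apart from all the others. Along the first principal component, which held 80.4% of the variance of the tested probes, they lay at 15.57 and 22.83, and the other 4 libraries between -15.21 and -5.22. The anti-TIM-3 pair differed by a median of 0.325 in log2 and the untreated feeder pair by 0.274, against a median absolute difference of 0.715 between the groups. More than 2-fold differences separated the anti-TIM-3 libraries at 36 probes and the untreated feeder libraries at 29, and the group means at 155. An exact permutation test over 2 libraries against 2 cannot give a two-sided p below 0.333, so all calls rest on the spread pooled by limma.

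Of the 430 probes tested, 135 were higher after anti-TIM-3 in limma with Benjamini-Hochberg adjustment, which is 31.4% of them, and 31 were lower, which is 7.21%. Rises were the more frequent and falls the deeper, with a median size of 1.314 among the rises and 2.298 among the falls. At least a 4-fold change was reached by 30 rises and 17 falls, and at least an 8-fold change by 4 rises and 10 falls. The median difference of all tested probes was 0.47 on the housekeeping scale. It was 0.21 when libraries were scaled by total count, -0.04 by positive controls and -0.03 by the median of ratios, so small rises are rises relative to the housekeeping probes only. On all 4 scales 26 probes rose, 6.05% of those tested, and 26 fell, 6.05% as well. Those calls are the ones described below as kept on all 4 scales. The counts of calls on each list below stand against these shares of all tested probes, 31.4% higher and 7.21% lower, or 6.05% each on all 4 scales. The positive control fit differs from the others in its moderation as well as its scale, with a median of 1290 degrees of freedom against 5.88 to 6.18, and it decides some of these labels: Ifitm1, the deepest fall, was at -6.27 there and had an adjusted p of 0.178.

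**Figure D1:**
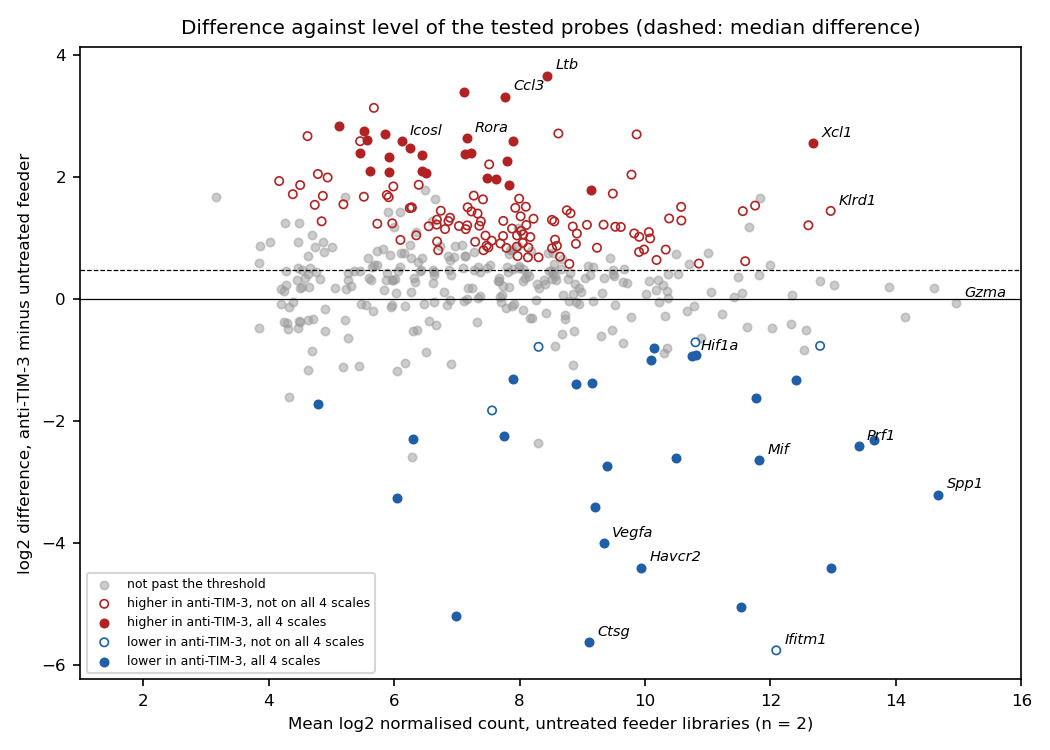
Each point is a tested probe, with its mean log2 normalised count in the untreated feeder libraries on the x axis and the log2 difference, anti-TIM-3 minus untreated feeder, on the y axis. Filled colours mark the 26 rises and 26 falls kept on all 4 scales, open colours calls made on the housekeeping scale and lost on at least 1 other, and the dashed line the median of 0.47, which lies near 0 on the positive control and median of ratios scales.

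Both anti-TIM-3 libraries lay above both untreated feeder libraries at 259 probes, 60.2% of those tested, and below both at 66, or 15.3%. Set against the IL-15 libraries as well, they lay above all 4 other libraries at 243 probes, 56.5%, and below all 4 at 54, 12.6%. Among the calls, 134 of 135 rises and 30 of 31 falls lay outside all 4 other libraries. The exceptions were Ada, the adenosine deaminase gene, with 86 normalised counts in IL-15 replicate 1, and Cd3d, a CD3 chain gene of T cells, with 22.5 there. Replicate 2 is the number that both groups share, and within that pair all 135 rises and all 31 falls had the sign of the group difference. No probe passed without untreated feeder replicate 3, where limma's smallest Benjamini-Hochberg adjusted p was 0.0517 and 156 probes had an unadjusted p under 0.05, although all 166 called probes kept their sign. Without untreated feeder replicate 2 there were 44 rises and 15 falls, and with anti-TIM-3 replicate 2 left out there were 32 and 11.

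The gene of the antibody's target was among the deepest falls. Havcr2 was at 87.9 and 24.3 normalised counts after anti-TIM-3, at 717 and 1343 in the untreated feeder libraries and at 682 and 538 in the IL-15 libraries. Both antibody-treated libraries were far below the other 4, and they differed from each other by more than did either of the other pairs. The difference was -4.41 ± 0.62, kept on all 4 scales, and -3.48 with anti-TIM-3 replicate 2 left out and -3.96 without untreated feeder replicate 3. The transcript does not check the labels, since the antibody acts on the protein.

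Of 14 tested inhibitory and checkpoint receptor genes, 2 rose and 4 fell, and 1 rise and the 4 falls were kept on all 4 scales. Over all tested probes 31.4% rose and 7.21% fell, with 6.05% each on all 4 scales. Klrg1, an inhibitory receptor that binds cadherins and marks mature NK cells, was at 65.3 and 46.9 normalised counts after anti-TIM-3 against 386 and 903, a difference of -3.42 ± 0.51. Cd160, whose product binds the TNF receptor family member HVEM and MHC class I, moved the other way, from 327 and 173 normalised counts to 1397 and 1439 (2.58 ± 0.34). Neither gene had any overlap between the groups, which was also so for 15.3% of tested probes in the direction of Klrg1 and 60.2% in that of Cd160. Klrc1, encoding the inhibitory NKG2A chain, rose by 0.63 ± 0.19, which was not kept on the other scales. The Ly49 family gene Klra2 had 6 and 4 recovered counts after anti-TIM-3, no more than the negative controls gave, and the size of its fall is poorly determined. Another Ly49 family gene, Klra5, picked with its values known, fell by 1.40 ± 0.30. Checkpoint genes that did not pass included Tigit at -0.04, Lag3 at 0.52 and Ctla4 at -2.60, the last with 30.7 and 198 normalised counts in the untreated feeder pair. This list had 1 rise and 3 falls without untreated feeder replicate 2, and 1 and 2 with anti-TIM-3 replicate 2 left out. Probes of the Ly49 and NKG2 families may share targets, since these genes are close relatives.

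Ligands of the TNF superfamily had the highest median of the 26 gene lists, 1.50 against 0.47 over all tested probes. Of 13 tested, 8 rose and none fell, and 5 rises were kept on all 4 scales, against 31.4% and 6.05% of all tested probes that rose and were kept. Ltb, the membrane-bound lymphotoxin chain, was at 2836 and 6719.6 normalised counts after anti-TIM-3, at 394 and 305 in the untreated feeder libraries and at 277 and 281 in the IL-15 libraries. Tnf itself was at 376 and 255 against 50.5 and 42, and in the IL-15 libraries at 42.6 and 53.4. In both genes the 4 libraries without antibody lay close together and the antibody libraries far above them. The differences were 3.65 ± 0.40 for Ltb and 2.75 ± 0.31 for Tnf, and 3.47 and 2.62 without untreated feeder replicate 3.

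Other ligands of the family followed. Tnfsf8, the ligand of CD30, rose from 63.4 and 53.1 normalised counts to 389.7 and 365. Tnfsf14, encoding LIGHT, the ligand of HVEM and of the lymphotoxin beta receptor, rose from 51.5 and 43.3 to 214 and 384. Lta, the soluble lymphotoxin chain, rose from 37.6 and 16.1 to 219 and 111. Death ligands were part of the group. Tnfsf10, encoding TRAIL, rose by 2.36 ± 0.36 and Fasl by 1.35 ± 0.27, and Tnfsf12, encoding TWEAK, by 1.50 ± 0.26. Tnfsf4, the OX40 ligand, did not pass, and its anti-TIM-3 libraries disagreed, at 276 and 93.8 normalised counts. Cd70 and Tnfsf11 were at -0.34 and -0.38 and did not pass. Rises on this list numbered 5 without untreated feeder replicate 2 and 6 with anti-TIM-3 replicate 2 left out.

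**Figure D2:**
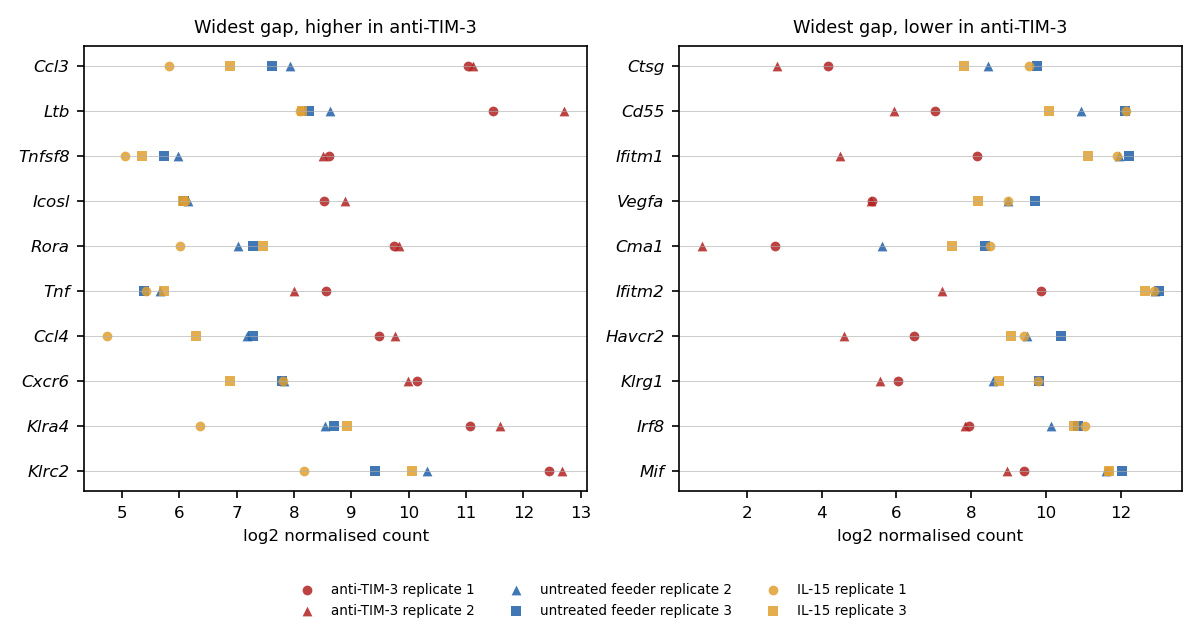
Log2 normalised count (x axis) of each library for the 10 rises and the 10 falls with the widest gap between the anti-TIM-3 libraries and all 4 other libraries. For Ccl3, Ltb and Tnfsf8 the anti-TIM-3 points lie to the right of all others, and for Ctsg, Cd55 and Ifitm1 to the left, with Ifitm1 and Ifitm2 far apart between the anti-TIM-3 replicates.

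Of 9 tested TNF receptor genes, 2 rose and none fell, against 31.4% and 7.21% over all tested probes, with a list median of 0.50, and no call was kept on all 4 scales, while the median of ratios scale gave 2 rises and 1 fall. Tnfrsf1a, the main TNF receptor, was at 399 and 417 normalised counts after anti-TIM-3 against 147 and 142, a difference of 1.50 ± 0.20. Tnfrsf14, encoding HVEM, was at 282 and 318 against 121 and 142 (1.19 ± 0.21). The replicates of both genes lay close together within each group. Tnfrsf9, encoding CD137, the receptor of a ligand carried by the feeder line, was at 660.1 and 707 against 979 and 1634, and at -0.89 ± 0.30 it did not pass. Adaptors and regulators downstream of the receptors gave 4 rises among 7, with a list median of 1.01. Traf3, which restrains the non-canonical NF-kB pathway, rose by 2.09 ± 0.38 and was the call of this list kept on all 4 scales. The deubiquitinase gene Cyld (1.40 ± 0.26), the death domain adaptor gene Fadd (1.27 ± 0.40) and Traf2 (1.01 ± 0.26) rose too. With anti-TIM-3 replicate 2 left out there was 1 rise among the receptors and 0 among the adaptors, and without untreated feeder replicate 2 there were 1 and 2.

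Most of the tested NF-kB genes rose. Of 13 tested subunit and regulator genes 9 passed as higher and none as lower, against 31.4% and 7.21% over all tested probes, with a median of 0.87. Relb, a subunit of the non-canonical pathway, was at 538 and 909.8 normalised counts after anti-TIM-3 against 179 and 178. Nfkbia, encoding the inhibitor IkB-alpha, was at 196 and 337 against 58.4 and 63. Both differed little among the 4 libraries without antibody, and in both the second anti-TIM-3 library was the higher. The differences were 1.97 ± 0.29 and 2.08 ± 0.32, and these were the calls of the list kept on all 4 scales. Ikbke, a kinase of the IkB kinase family, rose by 1.87 ± 0.35, Nfkb2 by 1.27 ± 0.22 and Rela by 1.21 ± 0.21. Smaller rises came from Rel (1.04) and from Bcl10 and Ikbkb (0.87 each). The members that did not pass were Nfkb1 at 0.32, Ikbkg at 0.47, Chuk at 0.54 and Tnfaip3 at 0.75. Nfkb1 and Ikbkg were at -0.17 and -0.03 on the median of ratios scale, on which 5 members rose. Rises numbered 2 without untreated feeder replicate 2 and 3 with anti-TIM-3 replicate 2 left out.

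**Figure D3:**
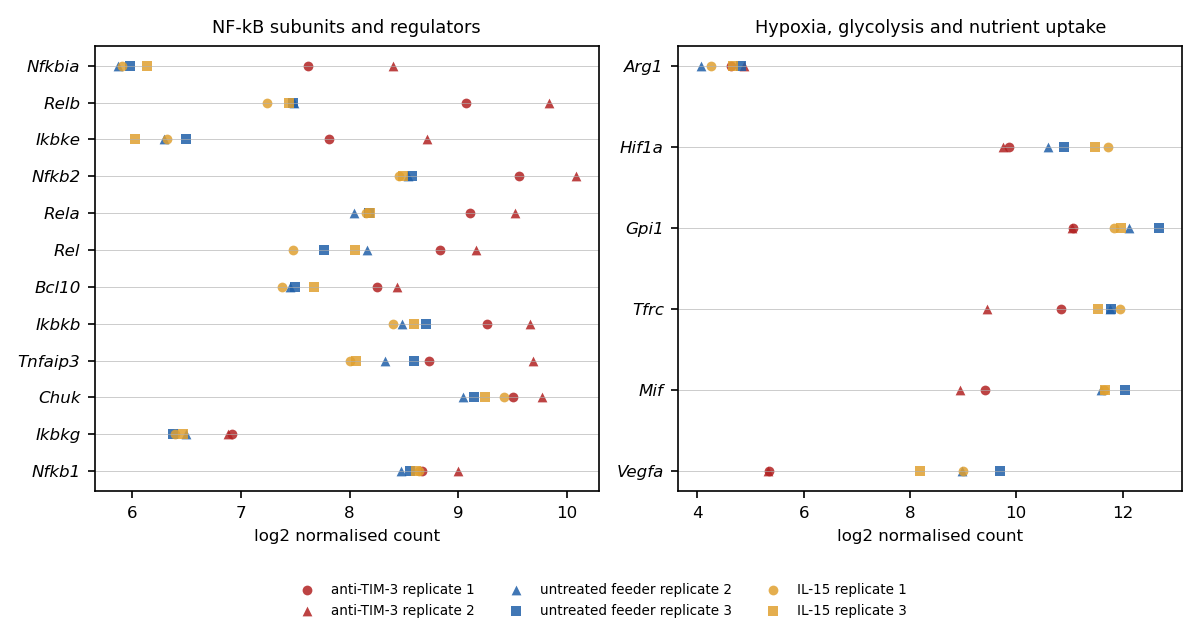
Log2 normalised count (x axis) of each library for 12 of the 13 tested members of the NF-kB list (left) and of the hypoxia, glycolysis and nutrient uptake list (right), ordered by their difference. The anti-TIM-3 points lie to the right of the untreated feeder points for the 8 NF-kB genes drawn that rose. For the 5 genes of the other list that fell they lie to the left. The differences of Ikbkg and Nfkb1, at the bottom on the left, turn below 0 on the median of ratios scale.

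Because rises included NF-kB genes and known targets of NF-kB, the promoter windows of RefSeq (GRCm38.p6, from 250 bases before to 50 after each transcript start) were searched on both strands for GGANTTTCC, a spelling of the kB site that was settled on after others had been tried with the values known. Of 27025 genes with a window, 392 (1.45%) held it. Among tested genes with a window it was in 12 of 112 that rose (10.71%), 1 of 26 that fell (3.85%) and 12 of 188 that did not pass (6.38%). It was in 3 of 9 genes of the NF-kB list and in 1 of 9 TNF superfamily ligand genes, so most genes of both lists lacked it. These shares are descriptions with no test. A match is a run of letters, and neither its presence nor its absence says anything of binding. The 4 windows that follow hold a match and are those of the gene with the largest rise, 2 NF-kB genes and an interferon-induced gene: Ltb at chr17:35194257-35194556 (plus strand, match 87 bases before the start), Nfkbia at chr12:55492598-55492897 (minus strand, 178 and 29 before), Nfkb2 at chr19:46305445-46305744 (plus strand, 12 after) and Gbp5 at chr3:142496684-142496983 (plus strand, 77 before). They run 5′ to 3′ on the gene's strand, with the match in capitals.
Ltb: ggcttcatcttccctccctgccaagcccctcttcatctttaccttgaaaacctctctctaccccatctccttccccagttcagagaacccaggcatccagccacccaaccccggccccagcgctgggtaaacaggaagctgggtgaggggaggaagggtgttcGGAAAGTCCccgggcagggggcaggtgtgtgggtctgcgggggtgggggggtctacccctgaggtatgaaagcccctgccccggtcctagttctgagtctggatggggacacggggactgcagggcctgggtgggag
Nfkbia: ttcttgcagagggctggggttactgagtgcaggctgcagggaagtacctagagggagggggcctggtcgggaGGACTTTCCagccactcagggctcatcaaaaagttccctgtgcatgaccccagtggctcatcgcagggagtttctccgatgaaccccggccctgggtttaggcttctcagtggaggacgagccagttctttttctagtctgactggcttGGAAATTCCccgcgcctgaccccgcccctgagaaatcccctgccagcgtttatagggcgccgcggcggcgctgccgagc
Nfkb2: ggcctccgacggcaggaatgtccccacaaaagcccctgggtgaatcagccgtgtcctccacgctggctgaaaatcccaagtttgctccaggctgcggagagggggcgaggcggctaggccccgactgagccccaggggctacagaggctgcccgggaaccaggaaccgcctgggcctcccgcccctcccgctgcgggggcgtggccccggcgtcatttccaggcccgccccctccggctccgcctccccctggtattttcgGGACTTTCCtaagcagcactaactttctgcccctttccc
Gbp5: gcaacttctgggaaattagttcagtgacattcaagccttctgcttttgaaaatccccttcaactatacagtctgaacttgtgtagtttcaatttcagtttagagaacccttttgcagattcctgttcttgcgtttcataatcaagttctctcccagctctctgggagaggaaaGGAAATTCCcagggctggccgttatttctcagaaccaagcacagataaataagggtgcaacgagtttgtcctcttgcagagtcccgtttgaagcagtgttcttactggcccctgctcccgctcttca

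Chemokine genes held the steepest rises beside Ltb. Of 10 tested ligands 5 rose and none fell, 4 of them kept on all 4 scales, with a list median of 1.40. Over all tested probes 31.4% rose, and 6.05% rose on all 4 scales. Ccl3 and Ccl4 encode chemokines that draw in T cells and monocytes. Ccl3 was at 2111 and 2233 normalised counts after anti-TIM-3, at 244 and 196 in the untreated feeder libraries and at 56.7 and 118 in the IL-15 libraries. Ccl4 was at 712 and 865 against 145 and 156. Its IL-15 libraries, at 26.7 and 78.3, lay lower still. Xcl1, encoding the dendritic cell attractant lymphotactin, reached 32272 and 45905 against 11085 and 3894. Ccl1, the ligand of CCR8, was at 714 and 2924 against 248 and 77.9, and its 2 libraries differed widely in both groups. The groups did not overlap for any of the 4 genes, as they did not in that direction at 60.2% of all tested probes. The differences were 3.31 ± 0.36 for Ccl3, 2.39 ± 0.49 for Ccl4, 2.55 ± 0.52 for Xcl1 and 3.38 ± 0.77 for Ccl1, which were 3.16, 2.44, 1.80 and 2.55 without untreated feeder replicate 3. The Ccl1 call rested on the IL-15 libraries, with an adjusted p in limma of 0.0192 with them, 0.0879 in the 4 compared libraries alone and 0.0956 and 0.0893 without IL-15 replicates 1 and 3. Ccl9 rose by 1.55 ± 0.41, and Cxcl10, at 1.25, did not pass. Among 8 chemokine receptor genes, Cxcr6 (2.26 ± 0.32), Ccrl2 (1.67 ± 0.44) and Ccr2 (0.61 ± 0.18) rose, the first on all 4 scales, and the Ccr2 call was lost in the 4 compared libraries alone. Cxcr6 is a receptor of tissue-resident lymphocytes, and was at 1135 and 1010.5 normalised counts against 226 and 222. The ligand and receptor lists had 3 and 1 rises without untreated feeder replicate 2, and 1 each with anti-TIM-3 replicate 2 left out.

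Interleukins, interferons and growth factors went both ways, with 2 rises and 3 falls among 14, against 31.4% and 7.21% over all tested probes. Csf2, encoding GM-CSF, rose from 51.5 and 23.5 normalised counts to 268 and 226. Il16 rose by 1.27 ± 0.25. Spp1, encoding osteopontin, fell from 17881 and 38387 to 3755 and 2134, with the IL-15 libraries at 35992 and 9445. Its fall exceeded the spread within either untreated pair, although those pairs themselves spanned more than 2-fold. The hallmark NK cytokine gene Ifng, picked with its values known, stood at 121 and 93.8 against 131 and 100.1 and did not pass, at -0.11 ± 0.42. Lif and Osm, of the IL-6 family, were at 1.09 and -1.10 and did not pass. In Osm the anti-TIM-3 libraries were at 349 and 134 normalised counts.

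Cytokine receptor genes gave 11 rises and no fall among 21, against 31.4% and 7.21% over all tested probes, with a median of 0.91. Il21r, the IL-21 receptor gene, was at 308 and 300.4 normalised counts against 66.3 and 55.6, and Tgfbr1, a TGF-beta receptor gene, at 699 and 984 against 229 and 229. Both were kept on all 4 scales, at 2.32 ± 0.23 and 1.86 ± 0.25. The receptor chains for IL-18 and IL-12 rose as well. Il18r1 went from 870.3 and 592 to 2170.5 and 2584, Il18rap rose by 1.31 ± 0.37 and Il12rb2 by 1.49 ± 0.31. The chain Il2rg, shared by IL-2, IL-15 and IL-21, rose by 1.21 ± 0.20. Il2rb, the signalling chain for IL-15, did not pass and was at 16348 and 18360.0 against 14339 and 16235. This list had 5 rises without untreated feeder replicate 2 and 4 with anti-TIM-3 replicate 2 left out. Behind the receptors, Socs1, an inhibitor of JAK kinases that cytokines induce, rose from 209 and 185 to 802 and 724 and was kept on all 4 scales. Jak2 and Tyk2 were among the risers of the other 10 JAK, STAT and SOCS genes tested, neither of them on all 4 scales. On that list 1 gene rose without untreated feeder replicate 2 and 1 with anti-TIM-3 replicate 2 left out.

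Interferon-related genes split. Of 21 tested, 8 rose and 3 fell, against 31.4% and 7.21% over all tested probes, with 2 of each kept on all 4 scales. Gbp5, encoding a guanylate-binding protein, was at 306 and 576 normalised counts against 77.2 and 75.4, and Irf1, a transcription factor induced by interferon gamma, at 1552 and 2438 against 665 and 477. The RNA sensor genes Ddx58 (1.17 ± 0.18) and Ifih1 (1.19 ± 0.24) and the nucleic acid sensor gene Zbp1 (1.63 ± 0.26) rose on the housekeeping scale. Irf8, a transcription factor of myeloid cell development, was the steadiest of the falls. It was at 244 and 227 against 1133 and 1836, a difference of -2.61 ± 0.27. Ifitm1 and Ifitm2, which encode antiviral membrane proteins, fell by larger and less certain amounts. Ifitm1 went from 3985 and 4790.0 to 286 and 22.6 normalised counts, and Ifitm2 from 7687 and 8339 to 936 and 149. The untreated feeder values were close together and the anti-TIM-3 values far apart, and with anti-TIM-3 replicate 2 left out the differences were -3.93 and -3.10 in place of -5.76 and -4.42. Both calls were lost in the 4 compared libraries alone, at adjusted p of 0.0596 and 0.0523 in limma, and without either IL-15 library. Isg15, a type I interferon target, did not pass at 0.46, and was at -0.03 on the median of ratios scale. Without untreated feeder replicate 2 the list had 6 rises and 1 fall, and with anti-TIM-3 replicate 2 left out it had 4 and 3.

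Activating receptors of NK cells and their adaptors had a median of 1.09, with 6 rises and 1 fall among 14, against 31.4% and 7.21% over all tested probes. None of the rises was kept on all 4 scales, and the median of ratios scale gave 1 rise and 4 falls. Klrc2, encoding the activating NKG2C chain, rose from 1273 and 685 normalised counts to 5594 and 6509.5, and Klra4, encoding Ly49D, from 372 and 415 to 2145 and 3073. The IL-15 replicates were far apart for both, at 289.6 and 1066 and at 82.6 and 484. Klrb1c, encoding NK1.1, rose from 812 and 959 to 2962 and 4399.8, Ncr1, the NKp46 gene that defines NK cells, from 3819.7 and 3130.3 to 7371 and 13443, and Klrd1, the CD94 partner of the NKG2 chains, from 8962 and 7095 to 17965 and 25981. In each of these the lower anti-TIM-3 library exceeded the higher untreated feeder library, which was so at 60.2% of all tested probes. Hcst, the adaptor DAP10, rose by 1.69 ± 0.25, whereas Klrk1, the NKG2D receptor that signals through it, was at 1.64 ± 0.53 and did not pass. Icos, a costimulatory receptor, was the gene that fell, from 444 and 727 to 255 and 186, on all 4 scales. Slamf7 and Fcer1g, an activating receptor and a signalling adaptor, were at -0.13 and 0.03, both over 1000 normalised counts in all 4 libraries. Signalling kinases near the receptors, Fyn (1.01), Syk (1.14), Lck (0.80), Zap70 (0.69), Lyn (0.79) and Prkcd (1.14), rose with Hcst to make 7 of 16 on their list, none on all 4 scales. The receptor list had 1 rise and 1 fall without untreated feeder replicate 2 and 1 and 0 with anti-TIM-3 replicate 2 left out, and the kinase list had 1 rise in each case.

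Cytotoxic granule genes divided into 3 falls, all kept on all 4 scales, and 4 rises among 11, against 7.21% lower and 31.4% higher over all tested probes. Prf1, encoding the pore-forming perforin, was at 1889 and 2205 normalised counts after anti-TIM-3, at 7595 and 15541 in the untreated feeder libraries and at 12804 and 8286 in the IL-15 libraries. The values with antibody agreed closely and lay well below all 4 others, at a difference of -2.41 ± 0.39 and of -1.90 without untreated feeder replicate 3. The granzyme genes did not follow. Gzma was at 35716 and 25861 against 29381 and 34628, and Gzmb at 14702 and 14648 against 15027 and 21657, and neither passed. Ctsg and Cma1, serine proteases best known from neutrophils and mast cells, fell from 352 and 868 normalised counts to 18 and 6.95, and from 48.5 and 331 to 6.76 and 1.74. In recovered counts the anti-TIM-3 values were 16 and 4 for Ctsg and 6 and 1 for Cma1. The background floors of those libraries were 8.07 and 9.89 counts, so 3 of the 4 values were below them and the sizes of these falls are poorly determined. The lysosomal proteases Ctss (2.09 ± 0.35, kept on all 4 scales) and Ctsw (1.50 ± 0.31) and the lysosomal membrane genes Cd63 (1.29 ± 0.33) and Lamp1 (0.76 ± 0.20) rose. Of the other mast cell markers, Kit rose by 1.43 ± 0.25, and Fcer1a, Ms4a2, Tpsab1 and Il1rl1 had at most 15 counts in any of the 4 libraries. The granule list had 2 rises and 3 falls without untreated feeder replicate 2 and 1 and 2 with anti-TIM-3 replicate 2 left out.

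The 6 tested genes of hypoxia, glycolysis and nutrient uptake had the lowest median of the 26 gene lists, -1.48, and 5 of them fell, each on all 4 scales. Over all tested probes 7.21% fell, and 6.05% fell on all 4 scales. Vegfa, an angiogenic factor and a textbook target of the hypoxia-inducible factor, was at 40.5 and 39.9 normalised counts after anti-TIM-3, against 507 and 828 in the untreated feeder and 511 and 293 in the IL-15 libraries. Mif, a cytokine gene that hypoxia also induces, was at 678 and 495 against 3090.0 and 4223. Hif1a, the regulated subunit of the factor itself, was at 929 and 863 against 1554 and 1903, with the IL-15 libraries higher, at 3389 and 2878. In all of these the groups were well separated, and the anti-TIM-3 libraries agreed most closely for Vegfa and Hif1a. The differences were -4.01 ± 0.35 for Vegfa, -2.64 ± 0.24 for Mif and -0.94 ± 0.19 for Hif1a, and -3.65, -2.42 and -0.80 without untreated feeder replicate 3. Gpi1, a glycolytic enzyme, fell by 1.34 ± 0.24, and Tfrc, the transferrin receptor that imports iron, by 1.63 ± 0.44. Arg1 was at 0.31 on the housekeeping scale and -0.19 on the median of ratios scale and did not pass, and Nos2 was not tested. There were 4 falls without untreated feeder replicate 2 and 2 with anti-TIM-3 replicate 2 left out. Vegfa and Mif are also on the interleukin and growth factor list.

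Further deep falls included some complement and adhesion genes. Cd55, which protects cells from complement, was at 131 and 60.8 normalised counts after anti-TIM-3 against 1974 and 4391, a difference of -5.05 ± 0.76. C1qbp and Cfp fell too, by 0.92 ± 0.18 and 1.73 ± 0.38. Of 6 tested complement genes 3 fell and Itgax rose, against 7.21% and 31.4% over all tested probes. Cfp had 7 and 5 recovered counts after anti-TIM-3, and with levels raised to the background floor it was at -1.14 and its call was lost, at an adjusted p of 0.0839 in limma. Cdh1, encoding E-cadherin, a ligand of KLRG1, fell from 548 and 823 to 95.7 and 104, and Epcam fell by 2.25 ± 0.51. These 2 were the falls on the adhesion list of 26, on which Icam1, Itga2, Itgax and Cd9 rose. Over all tested probes 7.21% fell and 31.4% rose. The median of ratios scale gave 2 rises and 6 falls on the adhesion list. Icam1, an NF-kB target that encodes the LFA-1 ligand CD54, rose from 159 and 122 normalised counts to 496 and 1054 on all 4 scales. The feeder line is engineered to carry CD54. The other feeder ligand in the deposited value table, Cd86, had 7 and 6 recovered counts after anti-TIM-3 against 24 and 13. Any part of feeder RNA in the Icam1 difference was not tested. Without untreated feeder replicate 2 the adhesion list had 3 rises and 2 falls and the complement list 0 and 1, and with anti-TIM-3 replicate 2 left out they had 2 and 0 and 0 and 1.

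Other surface molecules included ligands of costimulatory and checkpoint receptors. Icosl, the ligand of ICOS, was at 367 and 474 normalised counts after anti-TIM-3, and in the 4 libraries without antibody it lay between 66.6 and 71.3. That narrow background gave a difference of 2.58 ± 0.23, kept on all 4 scales. Cd274 and Pdcd1lg2, encoding the PD-1 ligands PD-L1 and PD-L2, rose by 1.27 ± 0.35 and 1.70 ± 0.42, and Pdcd1 itself was not tested, with at most 10 counts in the 4 libraries. Cd69, an early activation marker, rose from 1265 and 1414 to 3822 and 2894. Lgals3, encoding galectin-3, fell from 10827 and 15305 to 4149.6 and 1625. In all, 7 of 16 genes of this list rose and 1 fell, against 31.4% and 7.21% over all tested probes. There were 2 rises and 0 falls without untreated feeder replicate 2, and the same with anti-TIM-3 replicate 2 left out. On the median of ratios scale 2 rose and 2 fell.

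Transcription factor genes gave 5 rises and 1 fall among 18, no larger shares than the 31.4% and 7.21% of all tested probes. Rora, a nuclear receptor gene of innate lymphocytes, was at 863 and 912 normalised counts against 131 and 156 (2.64 ± 0.46), and was kept on all 4 scales. Tcf7 rose by 2.20 ± 0.58, Tbx21 by 1.44 ± 0.25, Ets1 by 1.28 ± 0.23 and Gata3 by 1.20 ± 0.25. Eomes, which with T-bet specifies NK cells, fell from 1596 and 2004 to 1073 and 1106. Tbx21 and Eomes, which encode related T-box factors, lay on opposite sides of 0, and neither call was kept on all 4 scales. No transcription factor gene passed without untreated feeder replicate 2 or with anti-TIM-3 replicate 2 left out. Of 24 genes of MAP kinase and NFAT signalling and immediate early response, 7 rose, no larger a share than the 31.4% of all tested probes. Among them were Egr3 (1.48), Nfatc1 (1.20) and the feedback phosphatase gene Dusp6 (1.18), while Jun and Fos were at -0.58 and 0.38 and did not pass. The median of ratios scale gave 3 rises and 3 falls on that list, and Fos was at -0.11 there. Its rises numbered 2 without untreated feeder replicate 2 and 0 with anti-TIM-3 replicate 2 left out. Smad3, a TGF-beta signal transducer gene, rose on all 4 scales, from 93.1 and 89 to 295 and 486.

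Genes of antigen presentation rose in part, and so did some markers of myeloid cells. Of 16 MHC class I, peptide loading and proteasome genes 8 rose and none fell on the housekeeping scale, against 31.4% and 7.21% over all tested probes. None of the 8 rose on all 4 scales, and on the median of ratios scale 2 genes of the list rose and 1 fell. H2-K1, a classical class I gene, was at 6919 and 9616 normalised counts against 2895 and 3148, and Nlrc5, its transactivator, at 686 and 919 against 281 and 231. MHC class II genes, which mark antigen-presenting cells, also rose. Cd74, the invariant chain, went from 118 and 22.2 to 435 and 460.1, and H2-Aa from 58.4 and 33.4 to 188 and 286. The untreated feeder libraries were far apart for Cd74, whose difference of 3.13 ± 0.90 was 1.92 without replicate 3. Of 9 tested myeloid markers 4 rose and none fell, with a median of 1.67 against 0.47 over all tested probes. Of these rises 1 was kept on all 4 scales. Csf1r was not tested, at 5 to 12 counts. Cd14 was at 14.6 and 19.1 normalised counts after anti-TIM-3 against 23.8 and 55.6, and did not pass. The part of such cells in these rises was not tested. The class I list had 1 rise without untreated feeder replicate 2 and 1 with anti-TIM-3 replicate 2 left out, and the myeloid markers had 2 and 0.

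Smaller lists completed the comparison. Among 11 apoptosis genes 2 rose and 2 fell, against 31.4% and 7.21% over all tested probes, and 7 did not pass. Bcl2 (0.84) and Casp1 (1.40) rose, and Bid (-0.79) was among those that fell. Of 23 innate sensing genes 6 rose, led by Nod1 (1.66), Nlrc5 and Casp1. That was no larger a share than the 31.4% of all tested probes, and none rose on all 4 scales. Of 10 genes of adenosine, prostaglandin and lipid mediators 5 rose on the housekeeping scale, and 0 on the median of ratios scale. Among the 5 were Ada, which degrades adenosine, at 1.86, and Nt5e and Cd38, which feed its formation, at 1.54 and 1.27. Of 8 TGF-beta pathway genes 4 rose, 2 of them on all 4 scales, against 31.4% and 6.05% over all tested probes. Of 7 autophagy genes 2 rose, no larger a share than that 31.4%, and none on all 4 scales. The 73 tested genes on no list gave 14 rises and 3 falls, with a median of 0.24, and the 3 falls, Anxa1, Fut7 and Mef2c, were kept on all 4 scales and none of the rises was. Of the 20 housekeeping probes, whose mean sets the scale, Eef1g fell (-0.77 ± 0.22), and the others lay between it and Alas1 at 0.52, with a median of 0.09 on the housekeeping scale that lies below 0 on the other 3 scales. These lists had between 0 and 2 calls each without untreated feeder replicate 2 or with anti-TIM-3 replicate 2 left out.

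**Figure D4:**
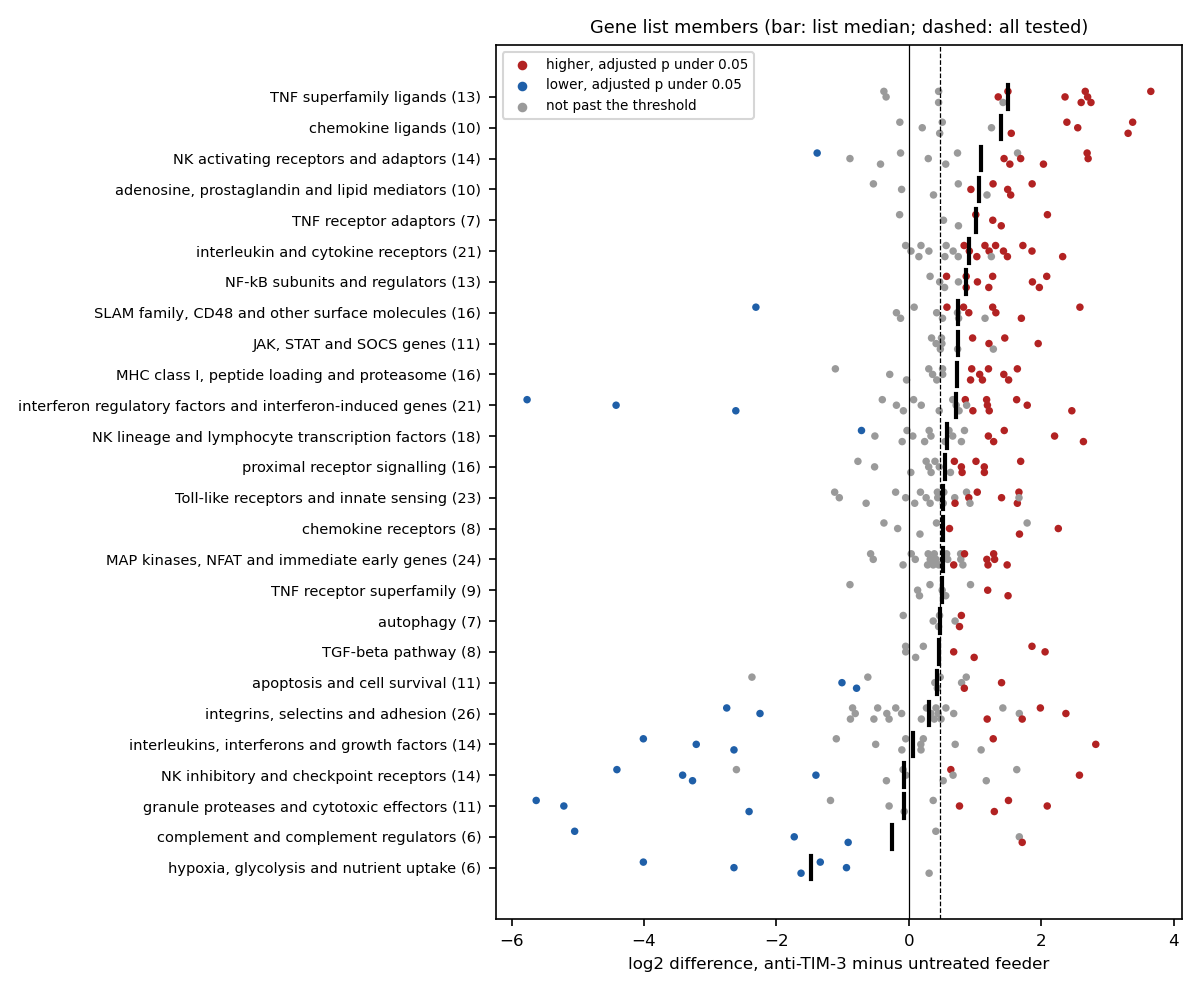
Log2 difference, anti-TIM-3 minus untreated feeder (x axis), of every tested member of the 26 gene lists (rows, with the number tested), coloured by call at an adjusted p of 0.05. Black bars are list medians, from 1.50 for TNF superfamily ligands to -1.48 for hypoxia, glycolysis and nutrient uptake, and the dashed line is the median of all tested probes, 0.47, so lists with bars near it would lie near 0 on the positive control and median of ratios scales.

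A set of genes at over 1000 normalised counts on average in both groups moved little. Hmgb1, a nuclear protein gene, was at 1442 and 1239.7 against 1398 and 1254, a difference of 0.01 ± 0.20, and Tgfb1 at 1154 and 1163 against 1136 and 1263 (-0.05 ± 0.18). Psma2, Cyfip2 and Ewsr1 were at 0.10, 0.11 and 0.12. These values are on the housekeeping scale and were between -0.54 and -0.37 on the median of ratios scale, so they are steady relative to the housekeeping probes only.

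The anti-TIM-3 libraries did not agree at every gene. Birc5, the survivin gene of dividing cells, had 272 and 7 recovered counts in them, and Cdkn1a, a cell cycle inhibitor gene picked with its values known, 986 and 87. Neither passed, and with anti-TIM-3 replicate 2 left out their differences were -0.04 and 0.82, against -2.37 and -0.62 with it. Ifitm1 at 254 and 13 counts, Ifitm2 at 831 and 86 and Havcr2 at 78 and 14 were lower in replicate 2 as well. Ltb and Ccl1 were higher there.

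**Figure D5:**
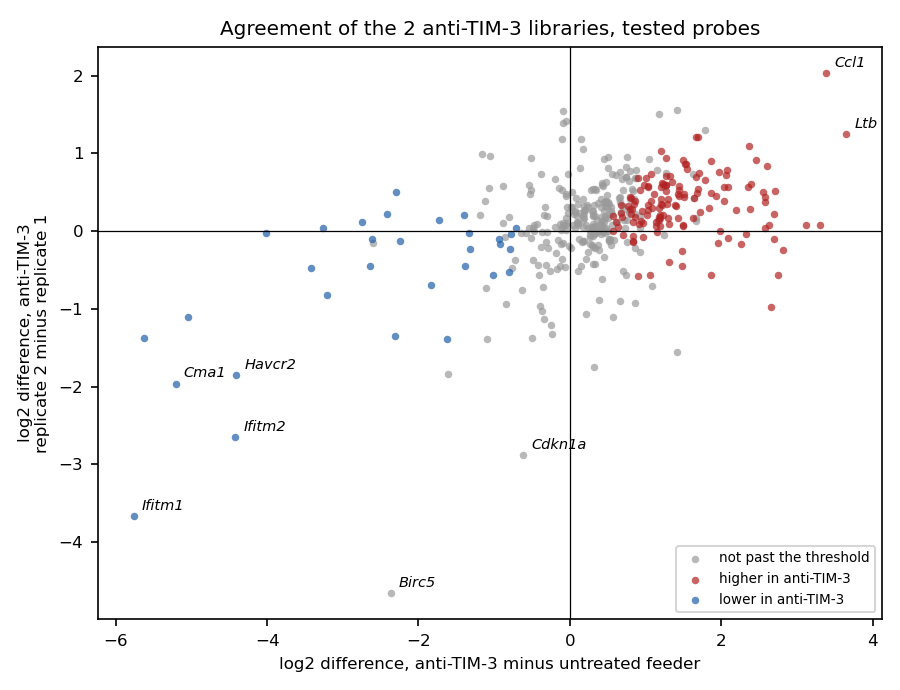
Each point is a tested probe, with its log2 difference between the groups on the x axis and the log2 difference between the anti-TIM-3 libraries, replicate 2 minus replicate 1, on the y axis. Most points lie near 0 on the y axis, and Birc5, Ifitm1, Cdkn1a and Ifitm2 stand below and Ccl1 and Ltb above.

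At the edge of detection, 88 probes were not tested. Il15, the gene of the cytokine in the medium, was the only probe over the background floor in both anti-TIM-3 and neither untreated feeder library, at 18 and 12 counts against 3 and 6. The reverse was true of 11 probes, among them Il18, Ccr8, which encodes the receptor of CCL1, and Tlr9.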

How the data were processed

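Transcripts of purified NK cells were measured in 6 libraries, of which 4 were compared. The authors deposited log2 values of 532 probes, 498 endogenous, 20 housekeeping and 14 control probes. Neither header nor label states their scaling, but the mean housekeeping value, at log2 9.22, was equal in the libraries. The submitters' processing notes list limma without version or role. The step between low values gave back whole counts for 100.0% of values within 0.01, and depth, filters and background floors come from these. A further 18 columns of values named by instrument lane were left aside, since no name ties a lane to a sample. The count table left aside listed 784 probes, so a probe absent from the 532 may still be on the panel. The authors' deposited table of fold changes and p-values, whose groups are named by number, was left aside too.

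The deposited log2 values entered limma 3.58.1 (R 4.3.3) as they stood, without a pseudocount. The model had the 3 groups over all 6 libraries, with a variance trend, robust moderation and Benjamini-Hochberg adjustment over 430 probes, those that reached 20 recovered counts in 2 or more libraries. The fit was tested on simulated data. Alternatives were 3 other scales, other filters and a floor, voom weights, limma without trend and robust moderation, 4 libraries alone, a replicate block, and leaving out each library.

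The gene lists, the members and the tests were chosen with earlier results of these data known. Of the 753 symbols on the 26 gene lists and 8 marker lists, 402 were in the table. Genes are named by a rule that took from each list up to 5 tested members of largest absolute difference, and the 10 rises and 10 falls with the widest gap to all 4 other libraries. It also took the 10 endogenous probes highest in the untreated feeder libraries, the 10 with the smallest absolute difference among those of at least 1000 normalised counts in both groups, Havcr2 and housekeeping probes past the threshold. Members of lists that are named beyond this rule were picked after their values were seen. A few members of the lists stay in the counts and are not reported here by name. Promoter windows are from RefSeq (GRCm38.p6). A low count limits precision at the level of the negative controls, and since probes differ in efficiency, levels of different probes served to choose and plot genes and are not comparable.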

Additional observations from a re-analysis of the deposited data

How the results depend on the processing

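Of the alternatives, leaving out untreated feeder replicate 3 moved the 135 rises and 31 falls furthest, to 0. Rises numbered 62 with total count, 32 with positive controls and 53 with median of ratios scaling, and falls 37, 37 and 49, but the positive control fit also moderated the variances far more strongly, so that its counts cannot be put down to the scale alone. No named gene that passed changed sign under any of the alternatives run. Between 120 and 136 rises and between 30 and 31 falls were called with no filter, a filter at 50 counts, a background floor, voom or limma without trend and robust moderation, and 137 and 32 with 4 libraries only, where of the genes taken by the naming rule Ccl1, Ccr2, Ifitm1, Ifitm2 and Smad4 lost their calls, as they did without either IL-15 library. With the replicate number as a block over the 6 libraries, 47 rose and 14 fell, and the groups compared share only replicate 2, so that the numbers do not pair the samples. Leaving out each library in turn gave 0 to 138 rises and 0 to 33 falls. Without untreated feeder replicate 3 the group keeps 1 library, assumed to vary like the others, and 156 probes then had an unadjusted p under 0.05. Without untreated feeder replicate 2 there were 44 and 15, and without anti-TIM-3 replicate 2 there were 32 and 11. The causes were not tested. Levels near the negative controls, as for Cma1, Ctsg, Klra2 and Cfp, limit the size of those falls, and the Cfp call was lost with the background floor.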
